A study of Arabidopsis thaliana with 12 samples.

Results

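The callus response of Arabidopsis cotyledons was set against that of roots. The response of a gene is the log2 ratio of callus over the explant it grew from, and the contrast is the cotyledon ratio minus the root ratio. The members were chosen by label alone: the 4 arrays titled as cotyledon callus and the 4 titled as root callus, 8 of the 12 arrays in the series. All plants were of the Ler ecotype with no mutation or transgene named. The cotyledon arrays carried callus that cotyledon explants had formed in 10 days on medium rich in auxin, with day 0 cotyledon explants in the other colour. The root arrays paired 10 day root callus with day 0 root explants in the same way, and each array was a separate biological replicate. Callus RNA was labelled with Cy5 in replicates 1 and 3 and with Cy3 in replicates 2 and 4 of both organs. Ages of the plants, the number of plants per replicate and the cytokinin in the medium are not stated. A ratio at or beyond 100-fold (6.64 on the log2 scale) is a limit and counted as missing, and a gene needed 3 or more values in both organs. This held for 10307 of the 13745 genes with a probe, of which 9513 were measured on all 8 arrays.

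Callus is a mass of dividing cells that forms when explants are kept on auxin and cytokinin. In Arabidopsis it grows from cells beside the vasculature, and it resembles the tip of a root primordium even when the explant is an aerial organ. A cotyledon explant starts as a green storage leaf full of chloroplasts, while a root explant starts with a meristem, root hairs and an endodermis of its own. The contrast asks where the organs changed by different amounts on the way to callus. The arrays give no levels, so a higher ratio in cotyledon can stem from more transcript in the cotyledon callus or from less in the cotyledon explant, and these cannot be told apart. In bulk tissue, fewer cells of a type and less RNA per cell cannot be told apart either. For the same reason the organ labels could not be checked against marker levels. The direction callus over explant is likely, since the labels name callus as channel 1 and the day 0 tissue as control, but it is not stated. If it were turned, every sign below would turn with it.

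Over the 9513 genes measured on all 8 arrays, r lay between 0.836 and 0.935 within cotyledon and between 0.692 and 0.821 within root. Across the organs it lay between 0.296 and 0.473. With limited values kept, r over all probes depended on the dye. Between arrays of opposite dye it ran from -0.587 to -0.254 within root and from -0.085 to 0.429 within cotyledon. Between arrays of the same dye it ran from 0.537 to 0.548 within root and from 0.087 to 0.842 within cotyledon. The share of probes at a limit ran from 1.99% to 19.3% on cotyledon arrays and from 7.40% to 22.4% on root arrays, with root replicates 1 and 2 the highest. Among genes with 1 probe, 657 in root and 15 in cotyledon reached the upper limit on both of the arrays with Cy5-labelled callus and the lower limit on both others. Their limits followed the dye, and none entered the fit. The number of arrays, 4 per organ, limits the precision of every value below.

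The organs differed widely in their response. limma's moderated test called 5575 of 10307 genes at a Benjamini-Hochberg adjusted p under 0.05, which is 54.1% of those tested. The cotyledon ratio was higher in 2776 genes (26.9%) and lower in 2799 (27.2%), and the median difference over all genes was -0.026. More than 2-fold lay between the organs in 1735 of the higher and 1470 of the lower genes, and more than 8-fold in 226 and 153. The 4 cotyledon values lay wholly above the 4 root values in 2578 genes (25.0%) and wholly below them in 2519 (24.4%), and 4868 of the called genes showed such a gap. All 5575 called genes had the same sign of difference in the arrays with callus in Cy5 and in those with callus in Cy3. A gene whose sign turned with the dye could hardly be called, so this is no independent check. Without root replicates 1 and 2, the root arrays with most limited values, 2387 genes were higher and 2485 lower. Cotyledon ratios were also spread more widely than root ratios, with an SD over gene means of 1.39 in cotyledon and 1.02 in root. Differences below are therefore given with the result after scaling the arrays to 1 spread wherever that changes a call.

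**Figure D1:**
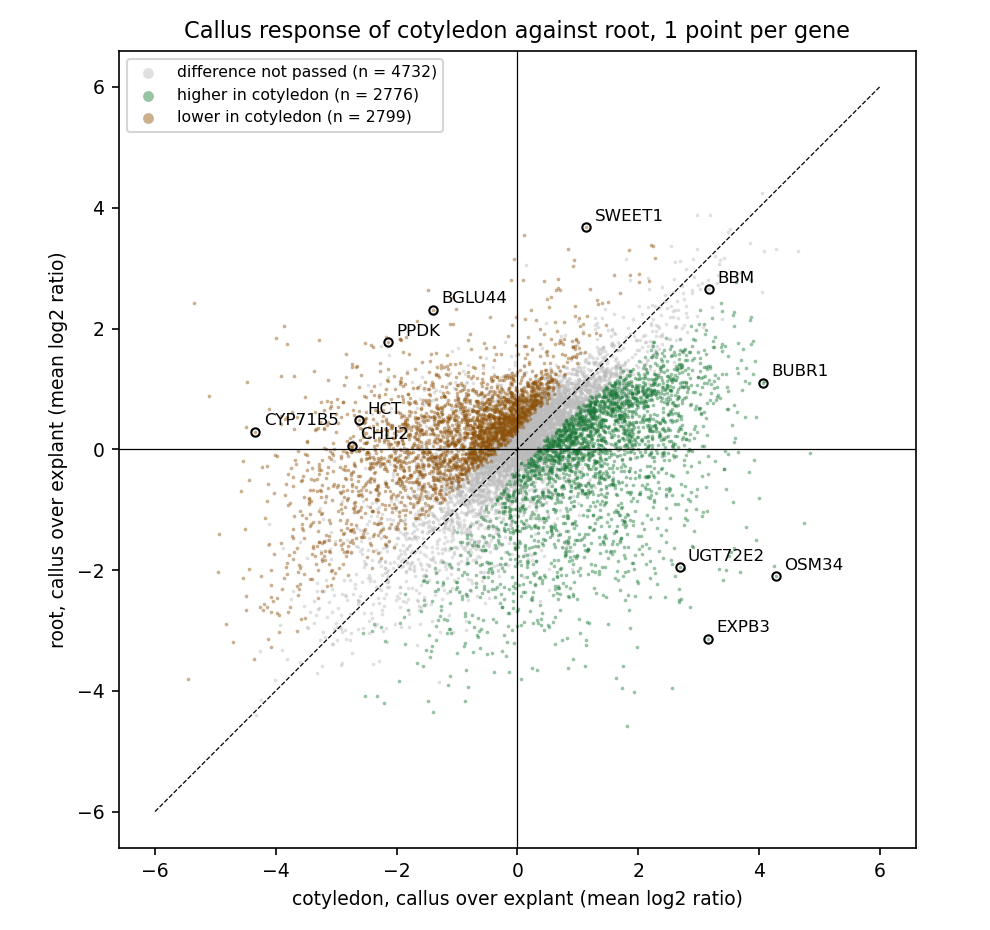
Mean log2 ratio of callus over explant in cotyledon (x axis, 4 arrays) against root (y axis, 4 arrays), 1 point per tested gene, with green for the 2776 genes higher and brown for the 2799 lower in cotyledon at an adjusted p under 0.05. The dashed line marks equal ratios, and OSM34 and EXPB3 lie far below it while CYP71B5 and PPDK lie far above it.

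The most frequent form of a higher call was a gene that rose in both organs, and rose more in cotyledon, with 948 genes. In 792 genes the cotyledon ratio rose while the root ratio did not pass, and in 380 the root ratio fell while the cotyledon ratio did not pass. Among the lower calls, 869 genes fell in cotyledon with no passing change in root, 529 rose in root with no passing change in cotyledon, and 516 fell in both but further in cotyledon. Over all tested genes, 39.8% rose and 31.2% fell in cotyledon callus, and 38.8% rose and 23.5% fell in root callus. Callus was above its explant in cotyledon and below it in root in 491 genes (4.76% of those tested), and the other way round in 642 (6.23%). Each of these genes passed in cotyledon, in root and in the difference.

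The highest differences included genes of the cell wall and of defence. The 15 highest and the 15 lowest named genes below are those with a symbol, a value on all 8 arrays and no overlap between the organs. All 30 kept their call in each of the 8 fits that left out 1 array, and after scaling. They were picked as the largest called differences on these same arrays, so this is no independent check. OSM34 (AT4G11650), an osmotin-like protein of the thaumatin family, had log2 ratios of 5.49, 3.83, 4.60 and 3.21 in cotyledon, against -1.47, -1.73, -1.81 and -3.41 in root. The groups were far apart, with a difference of 6.39 ± 0.41 (SE), or 83.7-fold, and an adjusted p of 4.94e-05. EXPB3 (AT4G28250), a beta-expansin that loosens cell walls, followed with 4.15, 3.05, 2.87 and 2.54 in cotyledon, against -3.17, -3.16, -2.67 and -3.55 in root. Its difference of 6.29 ± 0.31 (adjusted p = 2.51e-05) was the second of the 15. The alpha-expansin EXPA15 (AT2G03090) stood at 4.32, 3.31, 3.04 and 2.98 in cotyledon, against -2.64, -1.58, -1.73 and -2.71 in root. EXPA4 (AT2G39700), another alpha-expansin, was raised in cotyledon at 3.91 ± 0.92 but stood at -0.18 ± 0.34 in root (SD, n = 4 each), a difference of 4.10. GH9B8 (AT2G32990) and GH9C2 (AT1G64390), endoglucanases of glycoside hydrolase family 9 that act on wall glucans, differed by 4.70 and 3.99. GH9B8 held 3.65, 2.70, 2.17 and 1.90 in cotyledon, against -2.05, -1.82, -2.34 and -2.19 in root, so cotyledon and root moved in opposite directions by similar amounts.

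Of the 15, 3 are tied to ER bodies, a grouping made after their values were seen. NAI1 (AT2G22770) is a bHLH factor needed to form these spindle-shaped stores of beta-glucosidase found in Arabidopsis seedlings and roots. Its ratios were 3.79, 3.47, 2.54 and 2.68 in cotyledon, against -0.75, -0.46, -1.08 and -0.23 in root. BGLU21 (AT1G66270), a beta-glucosidase of the ER body kind, had 6.36, 1.75, 5.05 and 1.22 in cotyledon, against -0.61, -2.54, -0.44 and -2.91 in root. Both organs split by dye here, with higher values in replicates 1 and 3, yet the difference was 6.23 with callus in Cy5 and 4.21 with callus in Cy3. JAL22 (AT2G39310), a jacalin-related lectin of the family that binds such glucosidases, stood at 3.50, 2.68, 1.74 and 1.84 in cotyledon, against -2.30, -1.91, -2.38 and -3.20 in root. The fall of NAI1 in root did not pass.

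Other genes among the 15 highest act in several processes. UGT72E2 (AT5G66690), which attaches glucose to the precursors of lignin, had 3.30, 2.81, 2.27 and 2.37 in cotyledon, against -2.07, -2.07, -1.45 and -2.21 in root, a 24.9-fold difference. PUB23 (AT2G35930), a U-box ubiquitin ligase that dampens immune responses, had 2.52, 1.84, 2.44 and 2.44 in cotyledon, against -1.90, -2.50, -2.23 and -2.27 in root, and a difference of 4.53 ± 0.16, the smallest SE of the 15 (adjusted p = 2.20e-05). The membrane-traffic genes PRA1.B5 (AT5G01640), of the prenylated RAB acceptor family, and VPS2.2 (AT5G44560), of the ESCRT-III complex, differed by 5.27 ± 0.46 and 4.01 ± 0.19. MSRB9 (AT4G21850), a methionine sulfoxide reductase, averaged 1.67 ± 0.27 in cotyledon and -2.17 ± 0.45 in root (SD, n = 4 each). ARPN (AT2G02850), a plantacyanin, had 4.96, 4.39, 1.32 and 1.88 in cotyledon, against -0.64, -1.36, -1.77 and -0.34 in root. Its SE of 0.90 was the largest of the 15 (adjusted p = 0.00739). Its call was lost when the arrays of either dye were fitted alone, with adjusted p of 0.0695 in Cy5 and 0.0536 in Cy3.

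The lowest differences included enzymes of leaf metabolism and chloroplast proteins. CYP71B5 (AT3G53280), a cytochrome P450 of the CYP71 family, had -4.21, -4.27, -4.50 and -4.38 in cotyledon, against 0.52, 0.60, -0.075 and 0.13 in root. Its transcript fell in cotyledon while the root ratio lay near 0, a difference of -4.63 ± 0.18, or 24.8-fold lower in cotyledon (adjusted p = 2.20e-05). PPDK (AT4G15530), pyruvate orthophosphate dikinase of carbon metabolism, had -2.15, -2.33, -1.86 and -2.25 in cotyledon, against 2.29, 1.49, 1.68 and 1.62 in root. Here both organs moved, downward in cotyledon and upward in root, with a difference of -3.92 ± 0.16 (adjusted p = 2.20e-05). Cpn60beta4 (AT1G26230), a subunit of the chloroplast chaperonin, went the same way with -2.64, -2.40, -2.81 and -2.76 in cotyledon, against 1.10, 0.67, 2.14 and 1.58 in root. CaS (AT5G23060), the calcium-sensing protein of thylakoids, had -2.61, -2.47, -3.00 and -3.46 in cotyledon, against 0.45, 0.95, 1.14 and 0.60 in root. NOL (AT5G04900), a chlorophyll b reductase subunit, and PIFI (AT3G15840), a protein of chloroplast NDH electron flow, differed by -3.08 ± 0.15 and -3.56 ± 0.39. CHLI2 (AT5G45930), a subunit of the magnesium chelatase of chlorophyll synthesis, had -3.06, -2.24, -3.01 and -2.66 in cotyledon, against root values between -0.04 and 0.25.

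**Figure D2:**
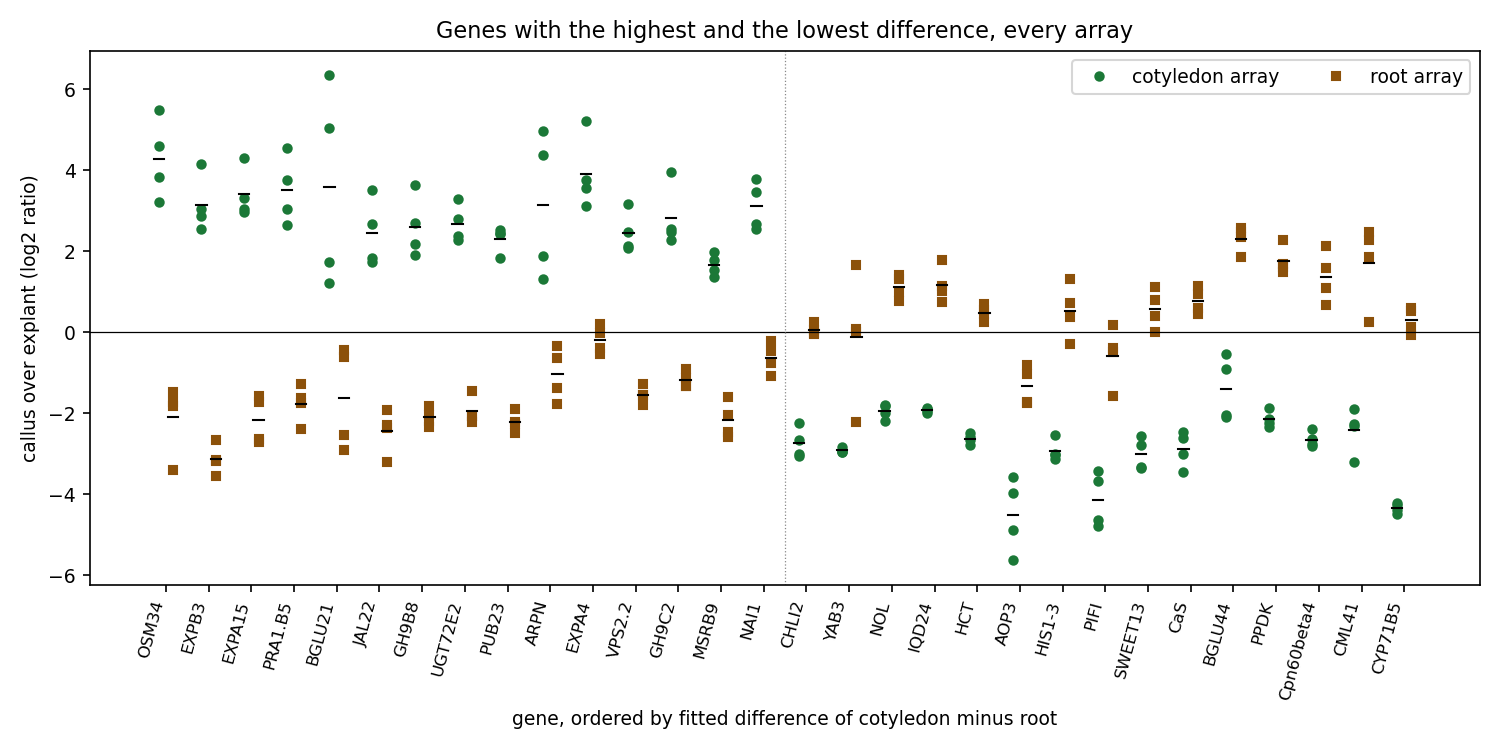
Log2 ratio of callus over explant (y axis) on every array for the 15 named genes with the highest and the 15 with the lowest difference (x axis, left and right of the dotted line). Green circles are the 4 cotyledon arrays and brown squares the 4 root arrays of a gene, with bars at the means. In none of the 30 genes do the organs overlap, by the rule that chose them.

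Among the other low genes, CML41 (AT3G50770), a calmodulin-like calcium sensor, differed by -4.14 ± 0.53 with -2.26, -3.22, -2.31 and -1.90 in cotyledon, against 2.28, 2.48, 0.26 and 1.85 in root. Root replicate 3 was the lowest of its root values, and lay above all 4 cotyledon values as the rule for the 15 required. BGLU44 (AT3G18080), a beta-glucosidase, had -0.54, -0.91, -2.10 and -2.04 in cotyledon, against 1.86, 2.47, 2.57 and 2.35 in root, the opposite pattern to BGLU21. HCT (AT5G48930), an acyltransferase of lignin precursor synthesis, had -2.48, -2.67, -2.59 and -2.78 in cotyledon, against 0.25, 0.55, 0.69 and 0.45 in root, and its SE of 0.13 was the smallest of the 15. IQD24 (AT5G07240), a calmodulin-binding scaffold protein, stood at -1.92 ± 0.049 in cotyledon and 1.18 ± 0.43 in root (SD, n = 4 each). HIS1-3 (AT2G18050), a linker histone induced by drought, averaged -2.93 ± 0.27 in cotyledon and 0.54 ± 0.68 in root. The sugar transporter SWEET13, the glucosinolate gene AOP3 and the polarity gene YAB3 complete the 15 and are described with their families.

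Genes with opposite directions were ranked by the smaller of their 2 organ ratios. The 8 leading genes raised in cotyledon and lowered in root were OSM34, EXPB3, EXPA15, JAL22, GH9B8, UGT72E2, PUB23 and PXMT1. PXMT1 (AT1G66700), a methyltransferase of the SABATH family, had 1.43, 1.74, 2.22 and 2.30 in cotyledon, against -1.56, -1.80 and -2.27 on the 3 root arrays that measured it. The 8 leading genes of the other class were CML41, Cpn60beta4, PPDK, BGLU44, GLR2.7, RING1, MAP1C and AGL65. GLR2.7 (AT2G29120), a glutamate receptor-like channel, had -1.79, -1.97, -1.14 and -0.45 in cotyledon, against 1.91, 1.70, 0.90 and 0.95 in root. RING1 (AT5G10380), a RING-type ubiquitin ligase, differed by -2.67 ± 0.42, and MAP1C (AT1G13270), a methionine aminopeptidase, by -2.53 ± 0.15. AGL65 (AT1G18750), a MADS-box factor known from pollen, had -1.58, -0.94, -1.44 and -0.81 in cotyledon, against 1.18, 1.64, 0.80 and 1.41 in root, with no cotyledon value above 0 and no root value below it.

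The petal arrays, which played no part in the contrast, give the same genes in another organ. Petal callus stood at 3.51 ± 0.66 (SD, n = 4) for OSM34, at 4.59 ± 0.81 for JAL22 and at 2.04 ± 0.27 for PXMT1, on the cotyledon side in each. GH9B8 at -0.15 ± 0.58 and EXPB3 at 0.45 ± 1.27 lay between the organs. In the other class, PPDK at -2.35 ± 0.54 was on the cotyledon side, whereas BGLU44 at 2.72 ± 0.49, GLR2.7 at 3.01 ± 0.48 and CML41 at 1.55 ± 0.42 were on the root side. Over all 9694 tested genes with a petal mean, the petal mean was nearer to cotyledon than to root in 58.2%. The share was 69.2% (1860 of 2687) for genes higher in cotyledon and 54.2% (1467 of 2709) for genes lower in cotyledon. It was 59.1% (276 of 467) for genes raised in cotyledon and lowered in root, and 51.6% (326 of 632) for the reverse. These shares are descriptions without a test.

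**Figure D3:**
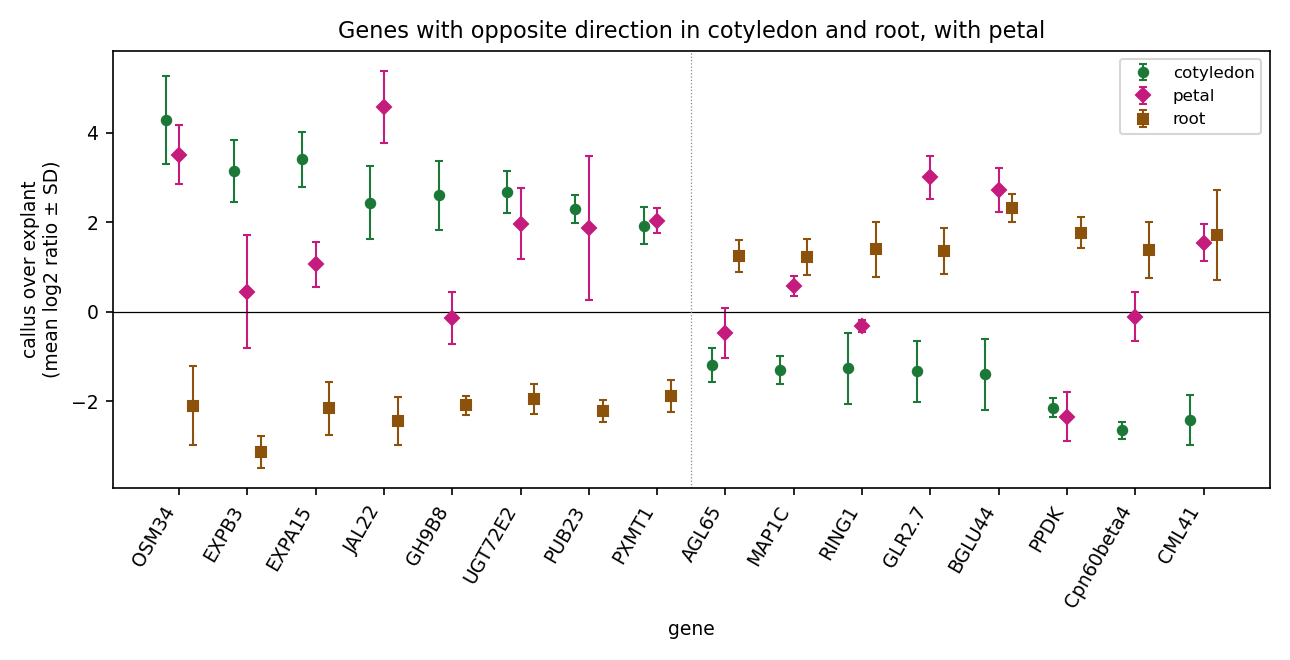
Mean log2 ratio of callus over explant (y axis) with SD over the measured arrays, for the 8 leading genes raised in cotyledon and lowered in root (left of the dotted line) and the 8 of the reverse class (right). Cotyledon is green, petal pink and root brown. Petal follows cotyledon for OSM34 and PPDK and lies on the root side for BGLU44 and GLR2.7.

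The few tested genes of the cell cycle and DNA replication lists rose in callus of both organs and rose further in cotyledon. Of 40 listed genes of the cell cycle and mitosis, 5 were tested. All 5 were higher in cotyledon, with a median difference of 1.70, beside 26.9% higher and a median of -0.026 over all genes. After scaling 4 of the 5 were higher and the median was 1.10. BUBR1 (AT2G33560), a kinase of the spindle checkpoint, had 4.67, 4.25, 3.76 and 3.62 in cotyledon, against 0.98, 1.20, 0.81 and 1.43 in root. The gap of 2.97 ± 0.27, or 7.85-fold, exceeded the spread in either organ (adjusted p = 0.000169). Haspin (AT1G09450), the kinase that marks histone H3 for Aurora at the centromere, had 4.53, 4.08, 3.37 and 3.61 in cotyledon, against 1.95, 1.76, 1.54 and 1.90 in root. The Aurora kinases AUR1 (AT4G32830), AUR2 (AT2G25880) and AUR3 (AT2G45490) differed by 1.13 ± 0.21, 1.70 ± 0.24 and 0.81 ± 0.20. AUR3 was measured on 3 root arrays. Its call was lost when root replicate 1 was left out (0.69, adjusted p = 0.083), after scaling (0.47, 0.0601) and with limited values kept (2.70, 0.27). AUR1 and AUR2 are close paralogs, so their probes may share signal.

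PRL (AT4G02060), the MCM7 subunit of the replicative helicase, had 2.91, 2.61, 2.23 and 1.90 in cotyledon, against 0.93, 1.30, 1.06 and 1.14 in root. ICU2 (AT5G67100), the catalytic subunit of DNA polymerase alpha, had 2.20, 2.25, 2.31 and 2.31 in cotyledon, against 0.98, 1.41, 1.16 and 1.45 in root, a difference of 1.01 ± 0.12. These were the 2 tested of 22 listed replication genes, and both were higher, beside 26.9% of all genes. Of 8 genes caught by name as kinesins and spindle proteins, 5 were higher and 3 lower, beside 26.9% and 27.2% of all genes. In cotyledon callus 4 of the 8 rose and 2 fell, beside 39.8% and 31.2% of all genes. In root callus 5 rose and 1 fell, beside 38.8% and 23.5%. The higher ones were BUBR1, BUB3.2, KINESIN-12B, BUB3.1 and ATMAP65-6. BUB3.2 (AT1G49910), another checkpoint protein, had 3.44, 3.41, 3.26 and 3.20 in cotyledon, against 1.15, 0.97, 0.69 and 0.76 in root, and KINESIN-12B (AT3G23670), a motor of the phragmoplast where the new wall forms, differed by 1.13 ± 0.26. BUB3.1 (AT3G19590) at 0.50 and ATMAP65-6 (AT2G01910), which bundles microtubules, at 0.44 had adjusted p of 0.0368 and 0.0245. BUB3.1 lost its call in 6 and ATMAP65-6 in 5 of the 8 fits that left out 1 array, with BUB3.1 from 0.38 to 0.53 and ATMAP65-6 from 0.35 to 0.44 in those fits, and BUB3.1 stood at 0.080 after scaling (adjusted p = 0.652). The 3 lower genes, KIN1, KIN2 and AT1G55460, entered by name only. KIN1 (AT5G15960) and KIN2 (AT5G15970) are cold-induced genes and no motors, near-identical copies whose probes may share signal, and differed by -2.05 and -2.24. AT1G55460 differed by -0.61 and did not pass when cotyledon replicate 1 (-0.48, adjusted p = 0.0501) or 2 (-0.60, 0.0528) was left out, and KIN1 lost it after scaling (-1.47, 0.0852).

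Regulators of the root meristem and of lateral roots were tested in 6 of 27 listed genes, with 4 higher, 1 lower and 1 not passed, and a median difference of 1.16, beside 26.9% higher, 27.2% lower and a median of -0.026 over all genes. With callus in Cy3 alone 1 was higher and 1 lower, and the median was 0.77 after scaling. LBD16 (AT2G42430), which starts lateral roots downstream of auxin, had 4.86, 3.02, 3.27 and 2.74 in cotyledon, against 0.79, 0.53, -0.34 and 1.66 in root. Cotyledon lay above root throughout, by 2.81 ± 0.59 (adjusted p = 0.00647), with 3.84 in Cy5 and 1.79 in Cy3. UPB1 (AT2G47270), a bHLH factor that sets the balance of reactive oxygen where root cells leave division, had 2.50, 1.60, 1.96 and 2.10 in cotyledon, against -0.88, -0.94, -0.090 and -1.03 in root. The signs were opposite, and the difference of 2.77 ± 0.23 had an adjusted p of 0.000113. AT5G48940, a locus with no name in the reference used, had 4.58, 2.93, 3.20 and 2.77 in cotyledon, against 1.40, 2.03, 2.07 and 1.28 in root, and its call (adjusted p = 0.00945) was lost after scaling (0.85, 0.0967). JKD (AT5G03150), a zinc finger factor of root patterning, was higher by 0.65 ± 0.18 (adjusted p = 0.0211). That call was lost without root replicate 1 (0.56, adjusted p = 0.0562). BBM (AT5G17430), an AP2 factor of embryo and root meristem identity, had 4.51, 2.64, 3.08 and 2.50 in cotyledon, against 2.84, 2.50, 2.90 and 2.40 in root. The organs overlapped for BBM, and the difference of 0.52 (95% interval from -0.26 to 1.30, adjusted p = 0.22) did not pass. The exception to the direction was CR4 (AT3G59420), the receptor kinase ACR4 that limits divisions around the root stem cells, with -0.16, 0.57, -0.36 and -0.014 in cotyledon, against 1.49, 1.86, 1.21 and 1.73 in root. Its difference was -1.56 ± 0.16 (adjusted p = 0.00028).

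Genes of differentiated root tissue were tested in 3 of 28 cases. EXPA7 (AT1G12560), an expansin of root hairs, had 2.21, 1.68, 1.86 and 1.27 in cotyledon, against -0.74, 0.22, 0.44 and -0.90 in root and was higher by 2.00 ± 0.35. NAXT1 (AT3G45650), a nitrate exporter of root cortex, had -0.89, 0.49 and -1.63 on the 3 measured cotyledon arrays, against -3.59, -3.38, -2.54 and -2.76 in root. It fell in root callus, and its difference of 2.30 ± 0.52 had an adjusted p of 0.0118. The call was lost with limited values kept (0.90, adjusted p = 0.624) and without root replicates 1 and 2 (1.83, 0.0624). The root hair expansin EXPA18 (AT1G62980) did not pass at -1.44 (95% interval from -3.35 to 0.46), and passed as lower without root replicate 1 (-2.14, adjusted p = 0.0437). These are the only tested members, so most hair and endodermis markers are not covered.

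Of 40 listed auxin genes 7 were tested, of which 5 rose and 2 fell in cotyledon, and 4 rose and 0 fell in root. Over all genes 39.8% rose and 31.2% fell in cotyledon, and 38.8% rose and 23.5% fell in root. The difference between the organs was higher in 1, lower in 1 and did not pass in 5, beside 26.9% higher and 27.2% lower over all genes. GH3.17 (AT1G28130), an enzyme that conjugates auxin to glutamate, had 3.21, 2.42, 1.97 and 1.86 in cotyledon, against 0.055, 0.29, 0.48 and 0.024 in root. It rose in cotyledon while its root ratio did not pass, and was higher by 2.15 ± 0.30 (adjusted p = 0.00101). The auxin-induced GH3.3 (AT2G23170) had 4.45, 1.15, 4.26 and 1.05 in cotyledon, against 2.92, 2.60, 2.87 and 2.43 in root. Its cotyledon values split by dye, so the difference was 1.46 with callus in Cy5 and -1.42 with callus in Cy3, and over all arrays 0.018 (adjusted p = 0.981). GH3.1 (AT2G14960), IAA30 (AT3G62100), IAA31 (AT3G17600) and IAA18 (AT1G51950) had differences of 0.71, 0.25, 0.54 and -0.21, none of which passed. The 95% interval of GH3.1 ran from -0.11 to 1.52 and that of IAA30 from -0.37 to 0.88, and IAA30 passed as lower after scaling (-0.68, adjusted p = 0.043). IAA31 passed without root replicate 2 (0.82, adjusted p = 0.0145). IAA29 (AT4G32280), a repressor of auxin signalling, was lower by -1.40 ± 0.44 (adjusted p = 0.0318), with -1.89, 0.39, -0.94 and -0.97 in cotyledon, against 0.53, 0.18, 0.85 and 0.63 in root. Cotyledon replicate 2 overlapped the root values, and 6 of the 8 fits that left out 1 array gave no call, as low as -1.07 without cotyledon replicate 1 (adjusted p = 0.072). Of 4 cytokinin response regulators, which dampen or relay cytokinin signals, 0 passed by limma and 2 had an unadjusted p under 0.05. Over all genes 54.1% passed. ARR15 (AT1G74890) at 2.09 and RR19 (AT1G49190) at -3.34 had adjusted p of 0.0583 and 0.0618 and root values that ran from -2.80 to 1.87 and from 0.079 to 5.38. RR16 (AT2G40670) and RR22 (AT3G04280) differed by 0.47 and 0.060, and RR16 passed as higher after scaling (0.95, 0.02). ARR15 passed without root replicate 1 (2.62, 0.032) or cotyledon replicate 3 (2.52, 0.0483). RR19 passed as lower without root replicate 3 (-4.54, 0.013), and RR22 as lower without root replicate 2 (-0.51, 0.0401).

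Of 45 listed nuclear genes of the light reactions 8 were tested, and 7 fell in cotyledon callus and 8 in root callus. Over all genes 31.2% fell in cotyledon callus and 23.5% in root callus. In the difference 3 were lower in cotyledon, 1 was higher and 4 did not pass, beside 27.2% lower and 26.9% higher over all genes. With callus in Cy3 alone 7 were lower and 0 higher, and with callus in Cy5 alone 1 was lower and 1 higher. After scaling 1 was lower and 1 higher, and the median went from -1.04 to -0.15. With the interaction of organ and dye in the fit 5 were lower and 1 was higher. The gap between the organs moved with the dye. PSAN (AT5G64040), a subunit of photosystem I, had -3.28, -5.23, -3.62 and -5.64 in cotyledon, against -2.01, -2.40, -1.72 and -1.84 in root. It fell further in cotyledon by -2.45 ± 0.38 (adjusted p = 0.00163), with -1.58 in Cy5 and -3.32 in Cy3. LHCB4.2 (AT3G08940), an antenna protein of photosystem II, had -2.79, -5.04, -2.58 and -5.23 in cotyledon, against -1.96, -1.01, -1.0 and -2.22 in root, and ATPC1 (AT4G04640), the gamma subunit of the chloroplast ATP synthase, differed by -1.38 ± 0.32. After scaling LHCB4.2 stood at -1.27 (adjusted p = 0.115) and ATPC1 at -0.24 (0.576), so both lost their call. LHCB4.3 (AT2G40100), an antenna paralog, went the other way with 0.12, 1.24, -0.18 and -0.17 in cotyledon, against -1.12, -0.85, -0.60 and -0.73 in root, and its call (adjusted p = 0.0261) was lost without cotyledon replicate 1 or any of root replicates 1, 2 and 4, at 1.01 to 1.07 (adjusted p from 0.0612 to 0.0668).

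The antenna gene LHB1B2 (AT2G34420) shows the dependence on dye most clearly, with -0.92, -5.33, -1.16 and -5.50 in cotyledon, against -3.54, -4.01, -2.75 and -4.08 in root. Cotyledon lay above root by 2.11 with callus in Cy5 and below it by -1.37 as the difference with callus in Cy3, and the overall difference of 0.37 did not pass. It belongs to a family of near-identical copies, so its signal may include theirs. PSBW (AT2G30570) and PSBY (AT1G67740), small subunits of photosystem II, and LHCB4.1 (AT5G01530) split in the same way, with differences of 0.70, 0.38 and -0.13 in Cy5, and of -2.09, -1.73 and -2.76 in Cy3. The median difference of the 8 genes was 0.13 in Cy5 and -2.01 in Cy3. In 6 of the 8 the unadjusted p for a difference between dye orientations was under 0.05, beside 7.54% of all tested genes and 7.01% of the called ones, while no gene passed after adjustment. LHCB4.1 passed without cotyledon replicate 1 (-1.76, adjusted p = 0.0436) or root replicate 1 (-1.84, 0.0252), and PSBY without cotyledon replicate 3 (-1.09, 0.0443). With the interaction in limma's fit, LHCB4.1 (-1.44, adjusted p = 0.00239) and PSBW (-0.69, 0.00635) passed as lower. What the dye does to these ratios was not tested.

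**Figure D4:**
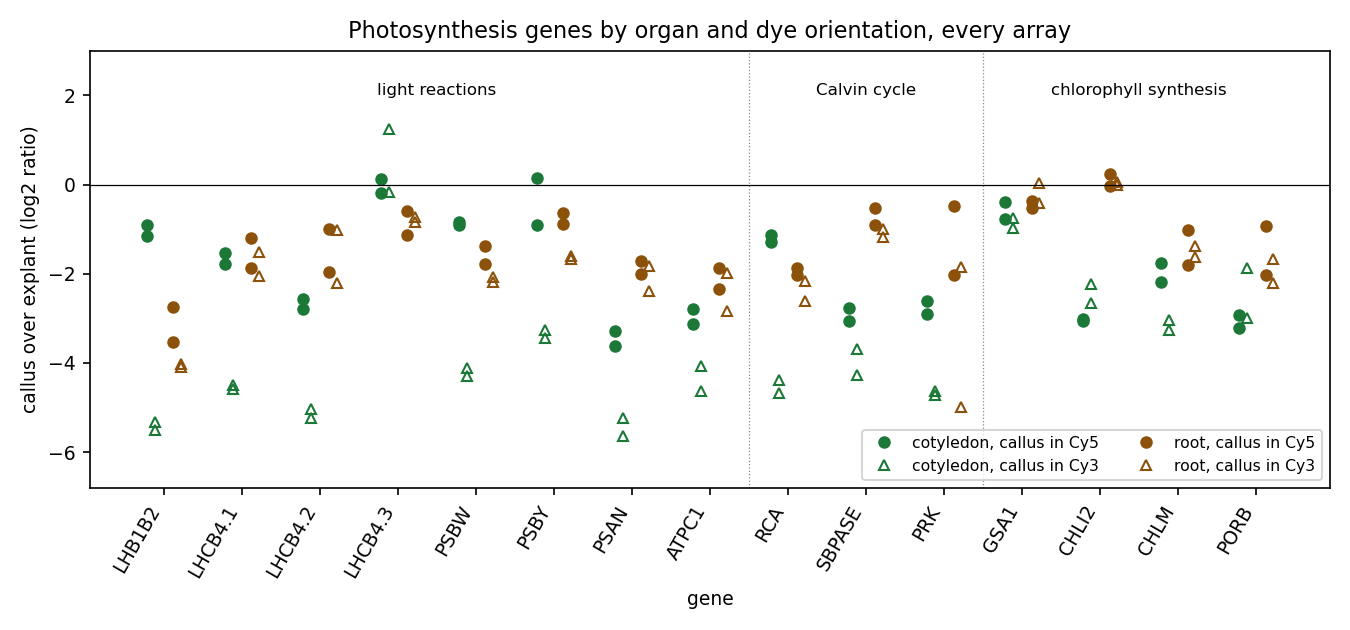
Log2 ratio of callus over explant (y axis) on every array for the tested photosynthesis genes, cotyledon in green left of root in brown. Filled circles are arrays with callus in Cy5 and open triangles arrays with callus in Cy3. Cotyledon values of LHB1B2, PSBW and RCA differ by several units between the dyes, while those of SBPASE and CHLI2 lie below root in both.

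In the Calvin cycle list 3 of 16 genes were tested. SBPASE (AT3G55800), sedoheptulose bisphosphatase, had -2.76, -3.68, -3.06 and -4.27 in cotyledon, against -0.91, -0.99, -0.53 and -1.17 in root. It was lower in cotyledon by -2.54 ± 0.22 (adjusted p = 0.000144), with no overlap and -2.19 and -2.90 in the dye orientations. RCA (AT2G39730), the activase of Rubisco, did not pass, at 0.74 in Cy5 and -2.15 in Cy3. With the interaction of organ and dye in the fit RCA passed as lower (-0.70, adjusted p = 0.0106). PRK (AT1G32060), phosphoribulokinase, differed by -1.37 with 1 root array at -4.99, and passed without that array, root replicate 2 (-2.03, adjusted p = 0.0114). Of 15 listed chlorophyll synthesis genes 4 were tested. CHLI2 and CHLM (AT4G25080), a methyltransferase of the pathway, were lower by -2.80 ± 0.18 and -1.11 ± 0.29. Over all genes 27.2% were lower. CHLM lost its call after scaling (-0.28, adjusted p = 0.521). PORB (AT4G27440) and GSA1 (AT5G63570) had differences of -1.04 and -0.41 that did not pass, and PORB passed without cotyledon replicate 2 (-1.37, 0.0165) or root replicate 4 (-1.25, 0.0488).

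Wall-loosening genes differed in both directions. Of 16 tested expansins caught by name, 6 were higher in cotyledon, 1 was lower and 9 did not pass, beside 26.9% higher and 27.2% lower for all genes. Their median difference was 0.12, beside -0.026 for all genes. EXPB3, EXPA15 and EXPA4 led, followed by EXPA7, EXPB1 (AT2G20750) at 1.96 ± 0.43 and EXPA24 (AT5G39310) at 1.55 ± 0.23. The expansin that was lower was EXPA16 (AT3G55500), with -2.18, -1.67, -3.09 and -2.62 in cotyledon, against -0.21, -0.59, -0.080 and -0.31 in root. These counts were the same after centring and after scaling of the arrays, and without root replicates 1 and 2 they were 5 higher and 1 lower. Xyloglucan endotransglucosylases cut and rejoin wall glucans, and 6 caught by name were tested. Of these, XTH20 (AT5G48070) was higher with 5.30, 3.34, 3.72 and 2.76 in cotyledon, against 1.92, 1.44, -0.13 and 1.29 in root. EXGT-A3 (AT2G01850) and XTH33 (AT1G10550) were lower by -2.26 and -1.43. The call of XTH33 was lost with callus in Cy5 alone (-1.93, adjusted p = 0.0572) and in Cy3 alone (-0.94, 0.0682). It was also lost without root replicates 1 and 2 (-1.45, 0.0754). XTH16, XTH19 and XTH32 did not pass, with differences of 0.15, 0.51 and 0.28, and XTH32 passed as higher after scaling (0.68, adjusted p = 0.0438).

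**Figure D5:**
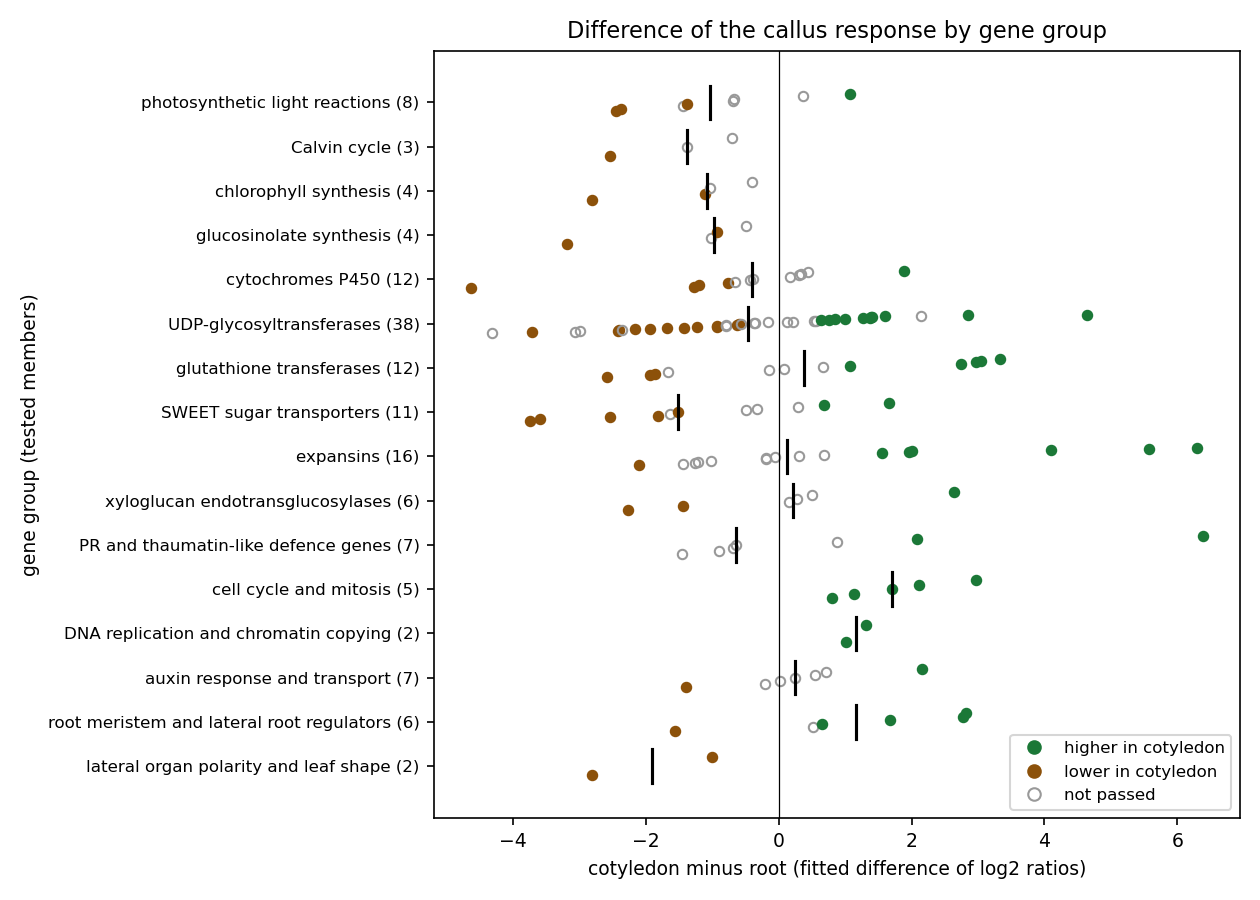
Fitted difference of cotyledon minus root on the log2 scale (x axis) for each tested member of 16 gene groups (rows, number tested in brackets), with filled green points for genes higher and filled brown for genes lower in cotyledon, open points for those that did not pass, and a bar at the group median. All 5 cell cycle genes lie right of 0, while expansins and glycosyltransferases lie on both sides.

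UDP-glycosyltransferases attach sugars to small molecules. Of 38 caught by name and tested, 11 were higher, 12 lower and 15 did not pass. These shares are close to the 26.9% higher and 27.2% lower of all genes. UGT71D1 (AT2G29730) had 1.23, 1.75, 0.59 and 1.07 in cotyledon, against -1.69, -1.68, -1.42 and -1.94 in root and stood second to UGT72E2 among the higher members. UGT78D1 (AT1G30530), which adds rhamnose to flavonols, was lowest of those called with -0.50, -4.92, -1.05 and -2.65 in cotyledon, against 3.64, -1.46, 1.19 and 2.34 in root. Its groups overlapped through root replicate 2, and the call was lost without root replicate 1 (-3.32, adjusted p = 0.0512). UGT84A1 (AT4G15480) had a difference as large as -4.32 that did not pass (adjusted p = 0.0611), with root values that ran from -2.66 to 6.42. It passed without cotyledon replicate 4 (-5.60, 0.028) or root replicate 2 (-5.80, 0.0123). UGT71C1, UGT71C2 and UGT71C3 were higher by 1.61, 1.27 and 0.99. After scaling, 14 of the 38 were higher and 7 lower.

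Of 12 tested cytochromes P450 caught by name, 4 were lower, 1 was higher and 7 did not pass. Over all genes 27.2% were lower and 26.9% higher. CYP71B34 (AT3G26300) had -3.66, -3.99, -4.36 and -3.93 in cotyledon, against -2.85, -2.90, -2.20 and -2.88 in root, and its neighbour by name CYP71B35 (AT3G26310) went the other way with 1.76, 1.44, 1.02 and 1.20 in cotyledon, against -0.068, -0.95, -0.91 and -0.15 in root. Their differences were -1.28 and 1.88. Scaling turned the balance of these 12 to 4 higher and 1 lower, with CYP71B34 at 0.037, so the direction of that gene was not kept. Glutathione transferases detoxify reactive compounds. Of 12 caught by name and tested, 5 were higher and 3 lower, beside the same 26.9% and 27.2% over all genes. GSTU22 (AT1G78340) had 0.37, 1.74, 1.31 and 1.76 in cotyledon, against -1.35, -2.70, -2.20 and -1.88 in root, and GSTF4 (AT1G02950) and GSTU26 (AT1G17190) differed by 3.04 ± 0.38 and 2.97 ± 0.43. GSTU20 (AT1G78370) was lower with -3.16, -3.32, -3.86 and -3.47 in cotyledon, against -0.97, -0.22, -0.30 and -2.00 in root, as were GSTL3 (AT5G02790) at -1.87 and GSTU18 (AT1G10360) at -1.94. GSTU18 lost its call in 3 of the 8 fits that left out 1 array, at -1.68 to -1.82 (adjusted p from 0.067 to 0.0699), and after scaling (-1.22, 0.133).

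Glucosinolates are the mustard oil precursors of this plant family. AOP3 (AT4G03050), which modifies their side chain, had -3.58, -5.63, -3.97 and -4.87 in cotyledon, against -1.75, -1.02, -0.81 and -1.72 in root, a difference of -3.19 ± 0.39. UGT74B1 (AT1G24100), which adds the glucose of the core structure, was lower by -0.93 ± 0.21, a call lost after scaling (-0.58, adjusted p = 0.0847). BCAT4 (AT3G19710), which starts the lengthening of methionine, fell in both organs with -3.66, -4.52, -3.81 and -3.72 in cotyledon, against -3.18, -2.31, -2.33 and -3.82 in root. Its difference of -1.02 did not pass (adjusted p = 0.0556). It passed without root replicate 4 (-1.31, 0.0214), with petal in the fit (-1.02, 0.0453) and when only genes measured on all 8 arrays were fitted (-1.02, 0.0468). AOP1 (AT4G03070) at -0.50 did not pass either. These are the 4 tested of 25 listed genes, with 2 lower and 0 higher, beside 27.2% lower and 26.9% higher over all genes. After scaling 1 was lower, and the list median went from -0.98 to -0.10. Over all alternative fits the differences of BCAT4 and AOP1 reached 0.38 and 0.64.

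SWEET transporters move sugars across membranes, and those of the leaf veins export sucrose. Of 11 tested, 5 were lower in cotyledon, 2 higher and 4 did not pass, with a median of -1.52, beside 27.2% lower, 26.9% higher and a median of -0.026 over all genes. The median was -0.86 without cotyledon replicate 2, -0.56 after scaling, -0.85 in Cy5 alone and -0.20 in Cy3 alone. SWEET13 (AT5G50800), a sucrose exporter, had -2.79, -2.57, -3.34 and -3.32 in cotyledon, against 1.13, 0.41, 0.79 and -0.00066 in root. SWEET1 (AT1G21460), a glucose carrier, rose in both organs but less in cotyledon, with 1.29, 1.30, 0.99 and 0.99 in cotyledon, against 3.70, 3.40, 3.73 and 3.90 in root, and its difference of -2.54 ± 0.16 had an adjusted p of 4.03e-05. SWEET4 (AT3G28007), measured on 3 arrays per organ, was lower by -3.74 ± 0.78, and did not pass when root replicate 3 was left out (-2.30, adjusted p = 0.058). The 2 higher members, SWEET3 (AT5G53190) at 1.66 and SWEET17 (AT4G15920) at 0.68, had adjusted p of 0.0311 and 0.0234. Each lost its call in 4 of the 8 fits that left out 1 array, with SWEET3 from 1.48 to 1.73 and SWEET17 from 0.57 to 0.67 in those fits. After scaling 3 of the 11 were higher and 4 lower.

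Defence genes were few. Of 7 tested PR, thaumatin-like and defensin genes, OSM34 and PR-1-LIKE (AT2G19990) were higher, a share close to the 26.9% of all genes. PR-1-LIKE had 4.25, 4.00, 3.20 and 3.53 in cotyledon, against 1.64, 2.23, 2.04 and 0.71 in root, a difference of 2.09 ± 0.39 that lost its call after scaling (1.22, adjusted p = 0.0503). ATLP-1 (AT1G18250) rose in both organs, with a difference of 0.87 that did not pass unless cotyledon replicate 1 was left out (0.40, adjusted p = 0.0414). The defensins PDF1.2, PDF1.2b, PDF1.2c and PDF1.3 had differences of -0.69, -1.46, -0.89 and -0.64, and none passed. They are close copies, and PDF1.2c and PDF1.3 passed as lower without cotyledon replicate 3 (-1.34 and -1.03, adjusted p = 0.0286 and 0.0109). After scaling PDF1.2, PDF1.2c and PDF1.3 were lower at -1.14, -1.40 and -1.24 (adjusted p = 0.0359, 0.0211 and 0.011).

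Among 32 tested transcription factors of the families caught by name, 9 were higher, 7 lower and 16 did not pass, beside 26.9% higher and 27.2% lower over all genes. bZIP70 (AT5G60830) had 3.49, 3.72, 3.84 and 2.65 in cotyledon, against 0.31, 0.12 and -1.43 on 3 root arrays, a difference of 3.67 ± 0.48 whose call was lost with limited values kept (2.02, adjusted p = 0.358). BZIP24 (AT3G51960), a repressor of the salt response, fell in both organs and less in cotyledon, with -2.12, -1.46, -1.35 and -0.45 in cotyledon, against -3.30, -3.38, -2.58 and -3.39 in root. WRKY6 (AT1G62300), a factor of senescence and defence, was higher by 1.60 ± 0.17. Some of the lower genes are factors of the iron response, a grouping made after their values were seen. BHLH101 (AT5G04150), induced by iron shortage, had -1.68, -1.03, -1.10 and -0.90 in cotyledon, against 0.90, 1.15, 2.13 and -0.064 in root, and bHLH121 (AT3G19860) and bHLH34 (AT3G23210) differed by -0.82 ± 0.10 and -0.55 ± 0.15. bHLH34 did not pass when cotyledon replicate 3 or 4 was left out, at -0.48 in both fits (adjusted p = 0.0526 and 0.0505). Of the other bHLH factors of the iron response in the list, bHLH115 (AT1G51070) was higher by 0.82, and bHLH104 and ILR3, at -0.25 and -0.30, did not pass. FD (AT4G35900), BZIP61 (AT3G58120) and BZIP34 (AT2G42380) were lower by -0.36, -1.25 and -1.39 with overlapping groups. They lost their call in 4, 5 and 7 of the 8 fits that left out 1 array, and after scaling (-0.28, -0.74 and -0.47, adjusted p = 0.0863, 0.206 and 0.4).

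Of 16 listed genes of leaf polarity and shape 2 were tested, and both were lower in cotyledon, beside 27.2% of all genes. YAB3 (AT4G00180), which marks the lower side of leaves, had -2.93, -2.82, -2.95 and -2.95 in cotyledon, against 1.68, -2.21, 0.014 and 0.087 in root. The cotyledon values were nearly equal while the root values spanned almost 4 units, and the difference of -2.80 ± 0.67 had an adjusted p of 0.0108. PHV (AT1G30490), an HD-ZIP III factor of the upper side and the vasculature, rose in both organs with 1.35, 1.18, 0.85 and 0.79 in cotyledon, against 1.96, 2.11, 2.00 and 2.08 in root, and less in cotyledon by -1.0 ± 0.16. YAB3 lost its call with callus in Cy3 alone (-1.82, adjusted p = 0.179) and PHV with callus in Cy5 alone (-0.89, 0.0509). The ribosomal protein list was caught by name and held 2 genes, both tested and higher, beside 26.9% of all genes. Ribosomal protein genes without such a name are not in it. PGY1 (AT2G27530), of the large subunit, was higher by 1.93 ± 0.41 and AT1G77750 by 1.17 ± 0.23. The PGY1 groups overlapped.

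Some genes could be read in 1 organ only. On 3 or more cotyledon arrays 11 genes sat at the lower limit while root gave a measured ratio, and the reverse held for 2. PRA1.G1 (AT1G55640), of the same family as PRA1.B5, was the one with a name. It was at or below the 100-fold limit on 3 cotyledon arrays, against a root mean of -0.23 ± 1.07 (SD, n = 4). Near the threshold, the named genes just inside were SWI3A, ZIP9, CYP78A9, GLR2.8 and BZIP34, with adjusted p from 0.0478 to 0.0495. Those just outside were CML23, ENGase85B, APG8A, CHC1 and PSF2, with adjusted p from 0.0502 to 0.052. Of these, CML23 (AT1G66400) had a difference as large as 2.22, with 0.70, 1.42, 3.45 and 4.10 in cotyledon, against 0.85, -0.052, -0.37 and 0.36 in root, and PSF2 (AT3G12530) one of 0.32 with no overlap. Each of the 10 changed sides in 1 or more of the 8 fits that left out 1 array, except CHC1. After scaling CYP78A9 (-0.78, adjusted p = 0.14), GLR2.8 (-1.81, 0.0878) and BZIP34 did not pass, and APG8A did (1.29, 0.0232).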

How the data were processed

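Transcripts of Arabidopsis callus and explants were measured on arrays with 2 colours, and RNA was amplified with T7 polymerase before labelling, per the labels' protocols. The authors deposited 1 table of log2 ratios, 26540 probes by 12 arrays, of which 24938 probes hold a value. Their unit follows from their range, which stops at 100-fold. No source at hand gives the scanner, background correction, normalization or filters behind the deposited log2 ratios, so centring, scale and stated direction stay unknown. Medians over tested genes lay between 0.012 and 0.154 on cotyledon arrays and between 0.134 and 0.204 on root arrays, and no further normalization was applied. No intensities were analysed here, so signal over background is unknown.

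The platform's table of probes gave 1 gene for 13960 probes, several for 0 and none for 12580. Of the named probes, 13912 matched the RefSeq gene table of TAIR10.1 for symbols and 48 did not, and 1231 tested genes had a symbol. Ribosomal proteins, cytochromes P450, expansins, xyloglucan endotransglucosylases, UDP-glycosyltransferases, SWEET transporters and glutathione transferases were caught by symbol or synonym. So were the PR and thaumatin-like genes, transcription factors, cytokinin response regulators and kinesins. Members without such a name are left out of these lists. Probes of a gene were averaged, and in 195 of 196 tested genes with several probes these held the same values. No 2 arrays held identical values. Groups came from the array titles.

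Organ and a dye term were fitted to the 8 arrays (limma 3.58.1, R 4.3.3, moderated 2-sided test of cotyledon minus root), with Benjamini-Hochberg adjustment over 10307 genes and a threshold of 0.05. The dye term and the interaction of organ and dye passed in 0 genes each, and the interaction had an unadjusted p under 0.05 in 777. A refit with 1 coefficient per organ gave the rise or fall in each organ. On simulated ratios for 10307 genes, differences of 0.5, 1 and 2 were planted in 67, 67 and 66 genes. Of these, 2.99%, 59.7% and 84.8% were recovered, and 4 of the 102 calls were false. In the data 54.1% of genes were called, so the adjusted threshold was less strict there. The simulated shares are therefore not the sensitivity of the real fit. Genes were named by rule, the 15 highest and 15 lowest differences without overlap on all 8 arrays, the 8 leading genes of each opposite class, in each list the 3 with the largest difference and any called against the list's median, and the 5 nearest to the threshold on each side. EXPB1, EXPA24, WRKY6, bHLH115, bHLH104 and ILR3 were added after their values were seen. The members, lists and tests were chosen with earlier results of these data known. The planned share of promoters with a motif was not run, since no sequence was at hand.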

Additional observations from a re-analysis of the deposited data

Results flagged for a closer look

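The response to culture differed between the organs by a test of the difference itself in 2776 genes that were higher and 2799 that were lower in cotyledon, and opposite directions passed in 491 and 642 genes. Single arrays stood apart about as often as chance gives. Among 276 sets of 4 values of the named genes, 1 array lay far from the other 3 in 16. That share is near the 5% of chance alone, so the values listed next are not read as a result.

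In cotyledon, replicate 1 was the high array of AUR2 (3.563), GH3.1 (3.075), GH9C2 (3.956), ATLP-1 (4.783) and UGT71C3 (2.247). Cotyledon replicate 2 was the low array of PUB23 (1.842), BCAT4 (-4.524) and UGT84A1 (-4.237) and the high array of XTH32 (0.124). In root, replicate 2 was the low array of SWEET3 (-2.696) and RR22 (-2.149), and replicate 3 the high array of UPB1 (-0.09), CYP71B34 (-2.201), BZIP24 (-2.578) and GSTU26 (-0.003). Root replicate 4 was the high array of UGT71B5 (0.35). Of these genes, PUB23, GH9C2, AUR2, UPB1, CYP71B34, UGT71C3, UGT71B5, GSTU26 and BZIP24 kept their call in every fit that left out 1 array. The cause of these single values was not tested.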

How the results depend on the processing

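Leaving out 1 array at a time gave 2441 to 2678 genes higher and 2412 to 2798 lower, with 422 to 470 raised in cotyledon and lowered in root and 533 to 603 of the reverse. Arrays with callus in Cy5 alone gave 1795 genes lower, and 285 and 265 with opposite directions. Arrays with callus in Cy3 alone gave 1501 higher and 1481 lower, and 339 lowered in cotyledon and raised in root. Both fits hold 2 arrays per organ. Among the named genes 27 lost their call in Cy5 alone and 36 in Cy3 alone, and not all of these losses are given above. Of the 5575 calls, 62.96% and 53.29% of those fitted were kept there, and 79.19% after scaling, where 2 were called in the opposite direction. The median over all genes was -0.34 with limited values kept. The share of calls that were higher stayed between 48.2% and 53.4%. Without root replicates 1 and 2, an alternative chosen after seeing the data, the opposite classes held 342 and 474 genes.

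Named genes reversed in these cases: LHB1B2 (-1.37) and GH3.3 (-1.42) in Cy3 alone, RCA (0.74) in Cy5 alone, IAA30 (-0.68) and CYP71B34 (0.037) after scaling, and RR22 (-0.51) without root replicate 2, where fits without 1 array ran from -0.51 to 0.48. The cause was not tested. Same-numbered arrays of the organs had correlations of deviations of 0.015, 0.13, 0.18 and 0.20, and cotyledon replicate 1 correlated best with root replicate 3 (0.31), so the numbers were not taken as pairs. With the replicate number as a block, 2482 genes were higher and 2438 lower, and 448 and 519 had opposite directions.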
